A study of Drosophila melanogaster with 3 samples.

Results

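Small nuclear RNA (snRNA) genes encode the short RNAs of the spliceosome and a few related particles. All 32 genes that the Ensembl annotation of the fly genome gives the biotype snRNA on chromosome arms 2L, 2R, 3L, 3R, 4 and X were taken, of 18164 genes on these 6 arms. Of these, 16 lie on 2L, 4 on 3L, 10 on 3R and 2 on X, and 0 lie on 2R or 4. The data map the chromatin protein CG8944 in Drosophila melanogaster embryos by chromatin immunoprecipitation and sequencing (ChIP-seq). The embryos were 0 to 24 h old, of both sexes together, and came from a transgenic line that stably makes CG8944 joined at its C terminus to GFP. An antibody against GFP recovered the chromatin, which had been sonicated to 200 to 800 bp, in 3 biological replicates that form 1 group. Whole embryos mix all cell types, and neither the promoter of the transgene nor the state of the untagged gene is given in the labels used here.

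U1, U2, U4, U5 and U6 snRNAs assemble with proteins into the particles that remove most introns, and U11, U12, U4atac and U6atac do the same for a rare intron class. U7 directs the 3′ end processing of histone mRNAs, and 7SK holds the elongation kinase P-TEFb in an inactive state. In flies RNA polymerase II makes most of these RNAs and RNA polymerase III makes U6, U6atac and 7SK, but both classes start from a shared upstream element that the SNAPc complex binds, which lies before a TATA box in the polymerase III genes. No polymerase class was assigned to snRNA:LU, and snRNA:7SKb was put in class III by its name.

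The shared upstream element is shown in the promoters of 2 pairs of genes of the same type, each with a member that had a reproducible peak and a member that had none. Each promoter runs 5′ to 3′ from 250 bases before the annotated gene start to 50 bases from it on, in the strand of the gene, from the RefSeq release 6 assembly, whose arms have the lengths of dm6. Capitals mark the word ATTCNCAA, which falls within the known upstream element, and in the 7SK pair also the word TATANA of the TATA box.

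snRNA:U1:95Ca promoter, chr3R:23859581-23859880, minus strand: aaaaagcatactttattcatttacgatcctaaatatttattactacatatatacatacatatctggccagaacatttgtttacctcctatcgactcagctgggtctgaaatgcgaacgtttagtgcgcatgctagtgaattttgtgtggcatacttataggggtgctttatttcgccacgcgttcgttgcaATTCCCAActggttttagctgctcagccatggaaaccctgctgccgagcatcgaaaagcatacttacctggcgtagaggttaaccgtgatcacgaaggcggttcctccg
snRNA:U1:95Cb promoter, chr3R:23827620-23827919, plus strand: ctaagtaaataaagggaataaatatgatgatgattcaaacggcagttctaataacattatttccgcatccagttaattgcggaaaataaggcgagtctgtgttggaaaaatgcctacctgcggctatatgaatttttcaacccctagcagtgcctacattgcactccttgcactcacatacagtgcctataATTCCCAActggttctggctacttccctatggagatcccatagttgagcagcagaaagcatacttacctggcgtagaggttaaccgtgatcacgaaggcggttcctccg
snRNA:7SKa promoter, chr3R:7474947-7475246, minus strand: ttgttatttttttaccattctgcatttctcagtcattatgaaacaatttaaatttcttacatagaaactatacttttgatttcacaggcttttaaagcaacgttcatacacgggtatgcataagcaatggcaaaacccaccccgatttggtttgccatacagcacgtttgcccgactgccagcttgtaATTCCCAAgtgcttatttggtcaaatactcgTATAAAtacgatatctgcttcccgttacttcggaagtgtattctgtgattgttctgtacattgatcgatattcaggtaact
snRNA:7SKb promoter, chr3R:23432619-23432918, plus strand: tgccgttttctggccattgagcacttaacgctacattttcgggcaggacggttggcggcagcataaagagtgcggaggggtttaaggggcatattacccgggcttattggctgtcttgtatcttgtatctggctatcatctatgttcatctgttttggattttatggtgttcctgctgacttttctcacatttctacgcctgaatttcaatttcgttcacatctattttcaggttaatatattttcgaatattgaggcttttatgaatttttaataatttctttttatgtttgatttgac

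The word ATTCNCAA stood at the same place in the promoters with and without a peak, and 7SKb was the exception. It was found in the sense strand in 31 of the 32 snRNA promoters, beginning between −65 and −56 bp from the start. The median position was −59 bp in the 25 polymerase II genes and −61 bp in the 5 polymerase III genes that had it. It was read from these promoters, so that this count is a description and not a test. Among all 18164 promoters, 85 (0.468%) held the word in the sense strand beginning between −75 and −50 bp, and on either strand anywhere in the 300 bases it occurred in 6.14% of all promoters. The word TATANA began between −31 and −28 bp in 5 of 6 polymerase III genes, again all but 7SKb, and stood between −40 and −15 bp in 0 of 25 polymerase II genes. In that window 10.5% of all promoters had it, and 62.3% had it on either strand within the 300 bases. The windows searched for the words do not overlap.

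The measurements were the authors' peak lists on dm6. The reproducible list held 3511 peaks that had passed an irreproducible discovery rate (IDR) threshold, the pooled list held 23886 relaxed entries of the 3 replicates together, and the replicate lists held 30000, 30000 and 27393 entries. A summit is the authors' point of highest signal in a peak, and a gene was counted where a summit lay within 500 bp of its start. Every distance is the summit minus the start along the gene, so that a positive value lies downstream. The signal is the caller's value, whose scale is not given in the sources used here, and it is read only within 1 list. Ranks run from 1 for the highest signal. Read depth is unknown, since the lists hold no read counts, and no control library was analysed here.

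A reproducible summit lay within 500 bp of the start of 9 of the 32 snRNA genes, through 8 distinct summits. They were U1:95Ca and U1:21D, U2:34ABb, U4:39B, U5:63BC and U5:35D, U6:96Ab and U6:96Ac, and 7SKa. The share was 28.1% (95% Wilson interval 15.6% to 45.4%, which covers the count of genes only), beside 14.1% of all genes and 17.1% of protein-coding genes. In the stronger part of the list, at or above its median signal, the order turned, with 2 snRNA genes (6.25%) beside 7.96% of all genes. In the whole list the share was 4.83% for the 290 tRNA genes, 3.35% for the 269 snoRNA genes and 4.66% for the 3261 ncRNA genes. For the spread between replicates the 3511 strongest entries of each replicate were used. They reached 9 snRNA genes in replicate 1 beside 14.0% of all genes, 8 in replicate 2 beside 13.4%, and 9 in replicate 3 beside 14.3%. That is 27.1% ± 1.80 (SD, n = 3) of the snRNA genes and 16.8% ± 0.503 (SD, n = 3) of the protein-coding genes. Every snRNA gene reached by a strongest entry also had a reproducible summit. No test of the share against the other genes was made, since the genes were chosen with results of these data known.

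**Figure D1:**
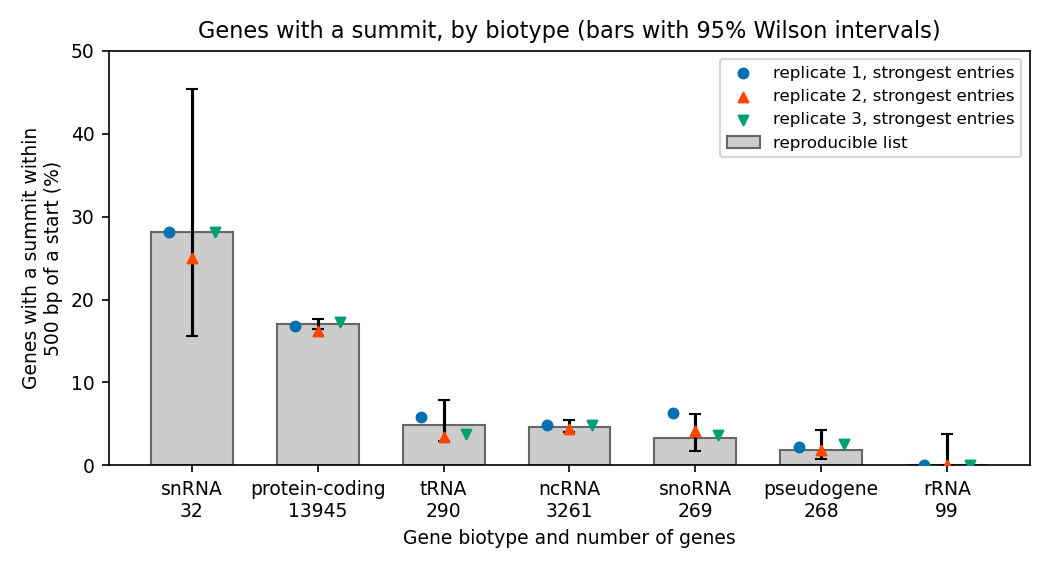
Share of genes of each biotype with a summit within 500 bp of a start, in percent. Grey bars are the reproducible list with 95% Wilson intervals and coloured points are the 3511 strongest entries of each replicate; the snRNA bar stands at 28.1% with replicates from 25% to 28.1%, and the protein-coding bar at 17.1%.

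Of the 5 U1 genes, 2 had a reproducible summit, and that of U1:95Ca had the highest signal of the snRNA genes. U1 snRNA pairs with the 5′ splice site. At U1:95Ca (FBgn0004185) the reproducible summit lay at +111 bp with a signal of 242 and rank 1027 of 3511. The replicate entries had signals of 74.5, 77.1 and 86.2 in replicates 1, 2 and 3, at ranks 1247, 1221 and 840. They placed the summit at +139, +123 and +51 bp, a mean of 104 ± 46.9 bp (SD, n = 3), so that the strongest entry of every replicate was inside the gene of 164 bp. Replicate 1 also had a second entry upstream, at −67 bp, with a signal of 40.0 and rank 3485. At U1:21D (FBgn0003916) the summit lay at +117 bp with a signal of 168 and rank 1848. The replicates gave signals of 58.2, 62.3 and 48.8 at ranks 1882, 1697 and 2106, and these summits, at +40, +152 and +134 bp, were again inside the gene. Weaker second entries lay upstream, at −47 bp with a signal of 37.4 in replicate 2 and at −67 bp with a signal of 17.2 in replicate 3.

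The other 3 U1 genes had a pooled summit but no reproducible one, in a pooled list whose median signal was 51.9. At U1:95Cb the pooled summit lay at +187 bp with a signal of 58.5 and rank 9160, and replicates 1 and 3 had entries with signals of 27.9 and 14.2. At U1:82Eb it lay at +64 bp with a signal of 54.5 and rank 10669, and at U1:95Cc at −2 bp with a signal of 48.0 and rank 14237. For both of these only replicate 1 had an entry, with signals of 17.7 and 17.9. U1 was the type with the most copies in the pooled list, 5 of 5, and the copies split into 2 with a reproducible summit and 3 without although their gene sequences are 98.2% to 100% identical.

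Of the 3 U4 genes and 7 U5 genes, which encode partners of U6 in the tri-snRNP, 3 had a reproducible summit. At U4:39B (FBgn0003930), in an intron of the autophagy gene Atg18b, the summit lay at +83 bp with a signal of 166 and rank 1883. The replicates gave signals of 67.9, 45.3 and 45.6 at +96, +93 and +125 bp, so that these positions differed by an SD of 17.7 bp. At U5:63BC (FBgn0003938) the summit lay at +96 bp with a signal of 164 and rank 1933, and the replicate signals were 58.6, 50.7 and 43.6. Its replicate summits at +107, +150 and +46 bp fell inside the gene of 123 bp in replicates 1 and 3 and just past it in replicate 2.

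The summit counted for U5:35D (FBgn0003936) stood apart in place. It lay at +483 bp, past the end of the gene of 126 bp and just inside the window. The nearest start of any gene to it was that of ND-B17, a gene for a subunit of respiratory complex I, 121 bp away, and the summit lay upstream of that start. Its pooled signal was 174 at rank 1764, and the replicate signals were 42.0, 25.0 and 68.1 at ranks 3239, 8498 and 1236. Replicate 2 thus had no strongest entry with its summit within the window. The entry counted there stood at +336 bp, against +485 and +486 bp in the others. Yet a strongest entry of replicate 2 did overlap the reproducible peak, since the gene stayed when replicate 1 or 3 was set aside. The summit of that entry lay beyond the window, so the signal of 25.0 and rank 8498 belong to a different, weaker entry.

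The remaining U4 and U5 genes had no reproducible summit. U4:38AB, in an intron of the gene sick, had a pooled summit at +89 bp with a signal of 81.1 and rank 5136. All 3 replicates had an entry there, with signals of 34.2, 28.8 and 17.8. U5:34A had a pooled summit at +171 bp with a signal of 38.6 and rank 23201, close to the bottom of the list, and an entry in replicate 1 only, at +132 bp with a signal of 26.5. No list held a summit within 500 bp of U4:25F, U5:23D, U5:38ABa, U5:38ABb or U5:14B.

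The places of the strongest U1 and U4 summits within their genes are marked next. Each gene is printed whole, 5′ to 3′ in its own strand as in the RefSeq release 6 assembly, and capitals mark the 5 bases centred on the reproducible summit.

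snRNA:U1:95Ca gene, chr3R:23859467-23859630, minus strand: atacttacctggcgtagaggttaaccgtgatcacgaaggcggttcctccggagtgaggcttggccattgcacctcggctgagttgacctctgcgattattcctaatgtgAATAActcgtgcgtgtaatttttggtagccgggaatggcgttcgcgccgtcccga
snRNA:U4:39B gene, chr2L:21215036-21215178, minus strand: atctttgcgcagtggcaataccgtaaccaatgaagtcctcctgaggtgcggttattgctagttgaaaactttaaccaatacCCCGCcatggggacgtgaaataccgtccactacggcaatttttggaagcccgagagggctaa

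Both summits lay past the middle of the transcribed sequence and downstream of the ATTCNCAA word. The distance from the first base of the word to the summit was 170 bp at U1:95Ca and 143 bp at U4:39B.

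Of the 6 U2 genes, which encode the RNA that pairs with the branch point, 1 had a reproducible summit. At U2:34ABb (FBgn0004192) it lay at +193 bp, 2 bp past the end of the gene, with a signal of 155 and rank 2090. The replicates gave signals of 67.4, 44.9 and 52.1 at +192, +203 and +144 bp. The start of kek4, a gene for a leucine-rich repeat membrane protein, is 489 bp from the start of U2:34ABb on the opposite strand, and the summit was 682 bp from it. The neighbour U2:34ABa had a pooled summit at +140 bp with a signal of 40.6 and rank 20820, and entries in replicates 1 and 2 at +237 and +150 bp with signals of 15.4 and 21.9. The pooled summit was 162 bp from the start of CG15482. U2:34ABc shared the weak pooled summit of U5:34A, which stood at −458 bp from its own start. U2:38ABa, U2:38ABb and U2:14B had no summit in any list.

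The 3 U6 genes lie in a row on 3R, each with a start 523 or 604 bp from the next, and 1 reproducible summit served 2 of them. U6 snRNA forms the catalytic core of the spliceosome. The summit lay at −119 bp from U6:96Ac (FBgn0004190), the nearest start of any gene, and at +404 bp from U6:96Ab (FBgn0004189), with a signal of 155 and rank 2100. The replicate signals were 52.8, 48.2 and 54.3, at −115, −136 and −142 bp from U6:96Ac. These positions differed by an SD of 14.2 bp, and U6:96Ac was the only gene of the 9 with its summit upstream of the start. U6:96Aa had a pooled summit at −27 bp with a signal of 52.2 and rank 11806. Its replicate entries disagreed in place, at +68, −26 and −465 bp, with signals of 17.7, 22.2 and 25.3.

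Of the 7SK pair, 7SKa carried the summit with the second highest signal and 7SKb had 1 weak replicate entry. At 7SKa (FBgn0065099) the reproducible summit lay at +239 bp, inside the gene of 444 bp, with a signal of 197 and rank 1444. The replicate signals were 65.9, 55.0 and 75.3, at +171, +247 and +208 bp. A second, weaker pooled summit lay at +40 bp with a signal of 58.7 and rank 9122. 7SKb (FBgn0288809) had an entry in replicate 1 only, at +108 bp with a signal of 18.0 and rank 16982. The gene sequences of the pair were 49.7% identical.

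The snRNAs of the rare spliceosome and U7 had no reproducible summit. U11 came closest, with a pooled summit at +189 bp, a signal of 85.1 and rank 4781, where the reproducible list ended at a signal of 107. Its entries had signals of 38.6, 32.3 and 16.9 in replicates 1, 2 and 3, and the last stood away from the others at −448 bp. U12 had a pooled summit at +200 bp with a signal of 57.6 and rank 9509, and replicate signals of 14.2, 28.4 and 14.4. U4atac had an entry in every replicate, but at +300, +72 and −356 bp and with signals of 14.1, 18.9 and 16.7, and had none in the pooled list. U7 had an entry in replicate 3 only, at −330 bp with a signal of 17.6. U6atac and LU had no summit in any list.

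**Figure D2:**
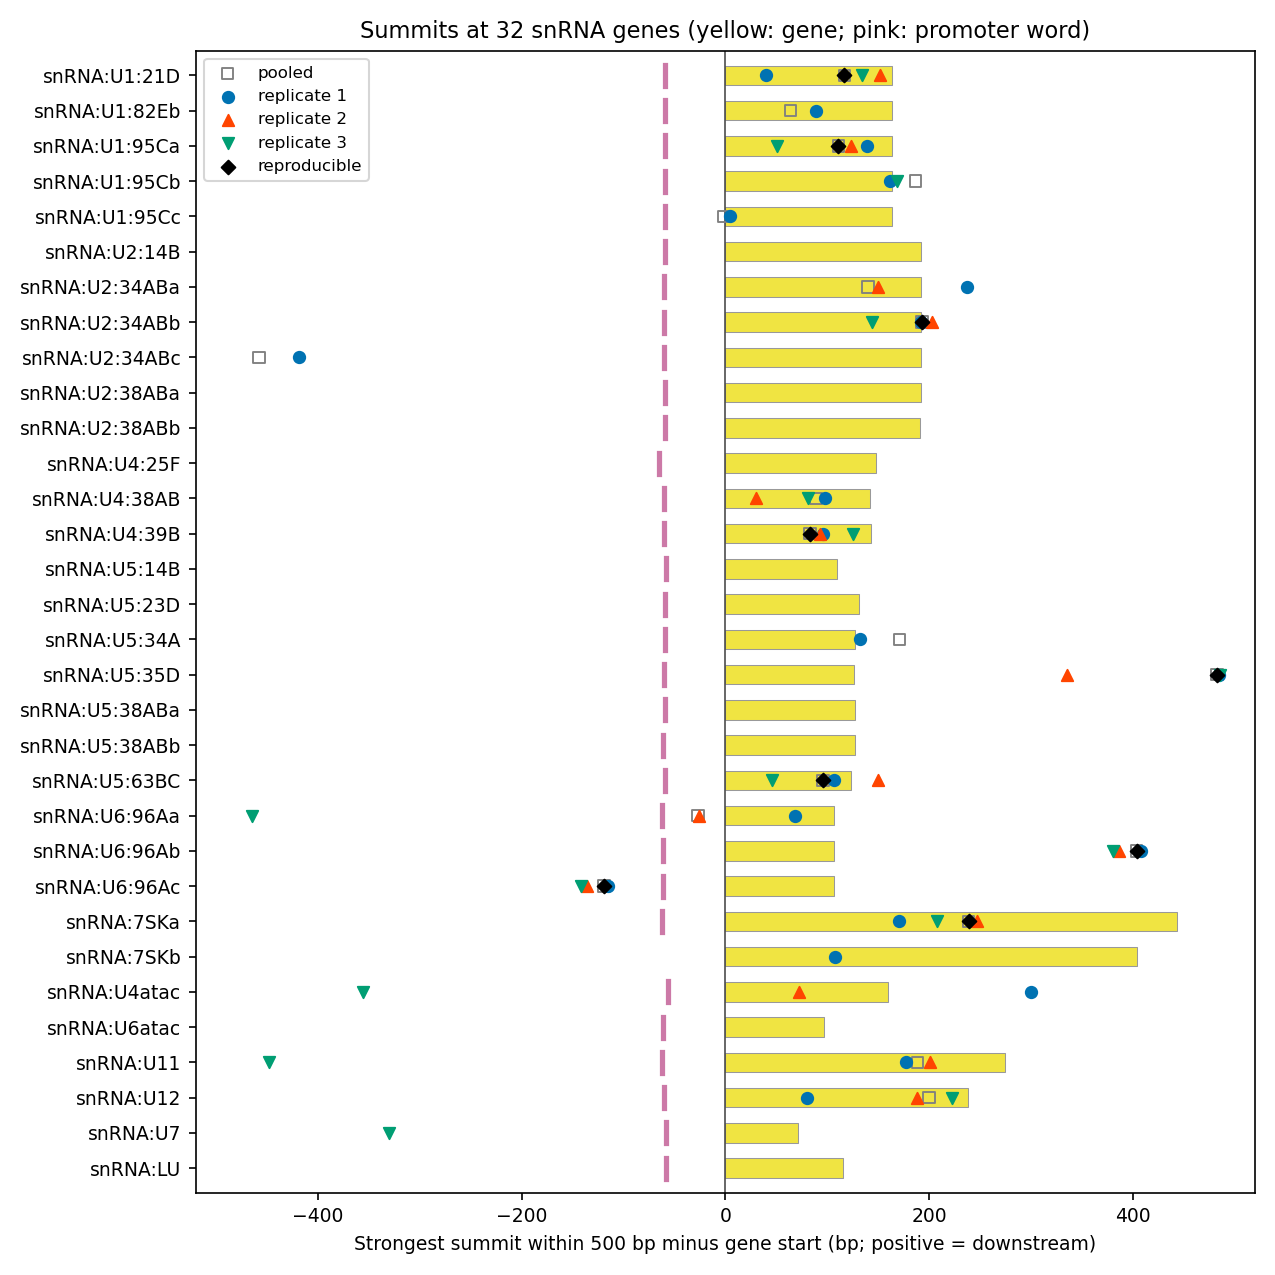
Position of the strongest summit within 500 bp of the start at each of the 32 snRNA genes, in bp from the gene start. Yellow bars are the genes, pink marks the ATTCNCAA word of the promoter, black diamonds the reproducible list, open squares the pooled list and coloured points the replicates; all reproducible summits but that of U6:96Ac, at −119 bp, lie right of the start.

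Over the pooled list, 19 of the 32 snRNA genes had a summit within 500 bp, 59.4% beside 39.9% of all genes. In at least 1 replicate list 22 had an entry of any strength, where 60.7% of all genes had one. By type the genes with a reproducible and with a pooled summit were 2 and 5 of 5 for U1, 1 and 3 of 6 for U2, 1 and 2 of 3 for U4, 2 and 3 of 7 for U5, 2 and 3 of 3 for U6, and 1 and 1 of 2 for 7SK. By polymerase they were 6 and 15 of 25 for class II and 3 and 4 of 6 for class III. Since U6:96Ab and U6:96Ac share a summit, the class III genes were reached through 2 reproducible summits. The difference between the classes was not tested.

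The reproducible snRNA summits were middling in signal. The SD of the strongest entry's position over the replicates, within the window, ran from 14.2 bp at the U6 summit to 60.1 bp at U1:21D and 86.3 bp at U5:35D. At U5:35D it takes in the replicate 2 entry at +336 bp, which was not the strongest over that peak. The signals of the reproducible summits ran from 155 to 242 with a median of 166 over the 9 genes. The median was 186 over all genes with a reproducible summit and 175 over the list. The best rank of any of these genes in a replicate was 840. Leaving out the entry of U5:35D in replicate 2, the lowest was 3239, that of U5:35D in replicate 1.

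**Figure D3:**
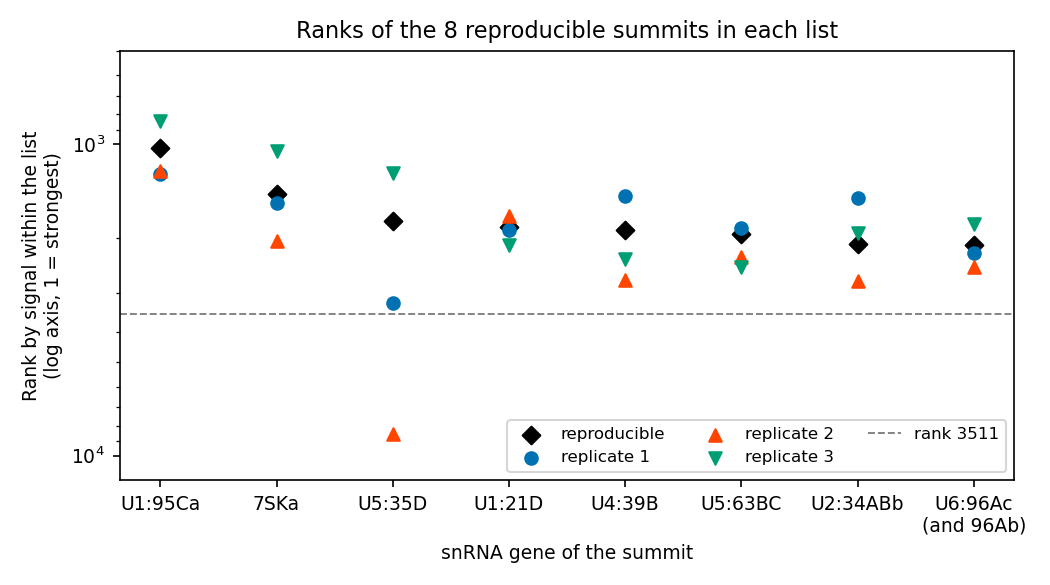
Rank by signal of the 8 reproducible snRNA summits in the reproducible list (black) and of the strongest entry within 500 bp of the same gene in each replicate (colours), on a log axis with the strongest at the top. The dashed line is rank 3511. The only point under it is U5:35D in replicate 2, at 8498, where a strongest entry with its summit beyond the window also overlapped the peak.

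The side of the start on which the summits lay was the plainest feature of the snRNA genes. Of the 9 genes, 8 (88.9%) had the nearest reproducible summit downstream, beside 14.2% of all genes and 12.1% of protein-coding genes with such a summit. The median position was +117 bp (quartiles +96 and +239 bp), beside −108 bp (quartiles −199 and −45 bp) for protein-coding genes. In the strongest entries of the replicates, 7 of 9, 7 of 8 and 8 of 9 snRNA genes had the nearest summit downstream. That is 84.7% ± 6.05 (SD, n = 3) beside 13.6% ± 1.71 (SD, n = 3) for protein-coding genes. The replicate medians averaged +131 ± 22.2 bp for snRNA genes and −109 ± 5.29 bp for protein-coding genes (SD, n = 3). The gap between these class shares was larger than their spread between replicates. Single genes of both classes lay on either side: U6:96Ac was upstream in every replicate, and U1:95Ca was counted upstream in replicate 1 through its second entry. The gap was not tested across genes. Counted once per summit, 7 of 8 lay downstream, and with a window of 200 bp, which leaves out U5:35D, U6:96Ab and 7SKa, 5 of 6 did.

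Of the 9 genes, 5 carried the summit inside the transcribed sequence. They were U1:95Ca, U1:21D, U4:39B, U5:63BC and 7SKa, which is 55.6% beside 25.7% of all genes with a reproducible summit. In the pooled list 15 of 19 snRNA genes (78.9%) had the nearest summit downstream beside 34.0% of all genes, and 10 (52.6%) had it inside the gene beside 40.4% of all genes. The inside shares are unlike measures, since other genes were counted at any of their starts and over their whole span. A summit before an internal start of a long gene thus counts as inside. Of protein-coding genes with a reproducible summit, 25.2% had it inside although 12.1% had it downstream. Among the other short RNA genes with a reproducible summit, 6 of 14 tRNA genes (42.9%) and 3 of 9 snoRNA genes (33.3%) had it downstream, and 0 of either had it inside the gene. In the pooled list the summit was inside 15 of 82 tRNA genes (18.3%) and 4 of 72 snoRNA genes (5.56%). Of the 152 ncRNA genes with a reproducible summit, 38.8% had it downstream and 35.5% inside. The snRNA genes are 71 to 444 bp long, and the sonicated fragments measured 200 to 800 bp.

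**Figure D4:**
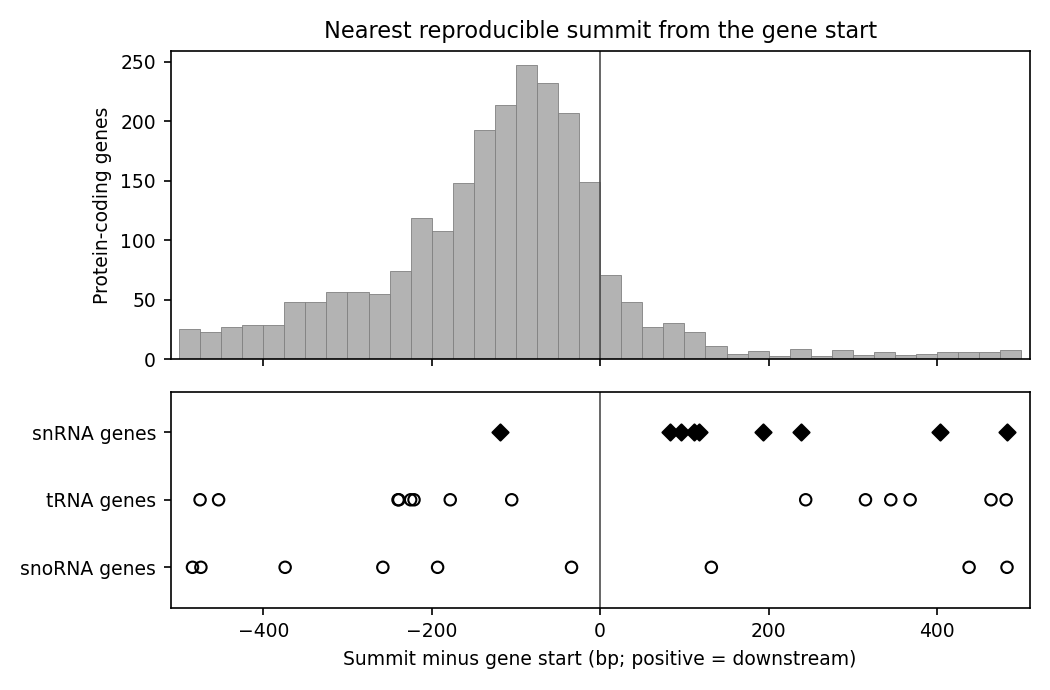
Position of the nearest reproducible summit within 500 bp of the gene start, in bp. The histogram counts protein-coding genes and the points are single snRNA (filled), tRNA and snoRNA genes (open); 8 of 9 snRNA genes lie right of the start, where 12.1% of protein-coding genes do.

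The ATTCNCAA word was near the snRNA summits but not at them. It occurred on either strand within 50 bp of 0 of the 8 summits and within 200 bp of 6 of them (75%). Of all 3511 reproducible summits, 2.19% had it within 50 bp and 8.46% within 200 bp. The 75% is a description and not a test. The word stands in 31 of the 32 snRNA promoters, and only summits within 500 bp of their starts were taken. At U2:34ABb, 7SKa and U5:35D the gene's own word began 253, 301 and 543 bp from the summit. The 6 therefore include a summit near another occurrence of the word. The summit was 58 bp upstream of the word at U6:96Ac, written as −58 bp, and 143 bp to 543 bp downstream of the first base of the word at the other 8 genes. Beside the snRNA genes, 54 genes of other biotypes had the word in the sense strand at the same place, and 5 of these (9.26%, beside 14.1% of all genes) had a reproducible summit within 500 bp. A pooled one was found at 16 (29.6%, beside 39.9% of all genes). The 5 with a reproducible summit were CG1774, CG7369, SAK, lncRNA:CR34335 and snoRNA:Me18S-C1968. The 54 genes differ from all genes in their mix of biotypes. The reproducible share was 15.8% of 19 protein-coding genes (17.1% of all such genes), 4.76% of 21 ncRNA genes (4.66%) and 16.7% of 6 snoRNA genes (3.35%). It was 0% of 6 pseudogenes (1.87%) and 0% of 2 tRNA genes (4.83%). The pooled shares in this order were 42.1% (45.0%), 14.3% (23.9%), 66.7% (26.8%), 0% (9.33%) and 50% (28.3%). The 54 also included RNaseMRP:RNA, which had no pooled summit, and the U3 snoRNA genes U3:9B and U3:54Ab, which had one, and U3:54Aa, which had none.

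Most of the summits lay far from protein-coding starts. For 8 of the 9 snRNA genes the summit was nearer to their own start than to any protein-coding start, with U5:35D and ND-B17 as the exception. A protein-coding start lay within 500 bp of 3 snRNA starts, and 1 of these, U2:34ABb near kek4, had a reproducible summit. The other 2 were U2:34ABa near CG15482 at 302 bp and U6atac near CG42819 at 393 bp. Of the 29 genes with no such start within 500 bp, 8 had a reproducible summit, and of the 27 with none within 1000 bp, 7 had one. Over all genes the share was 14.1%, and they were not divided by nearby starts. The protein-coding starts nearest to the summits of U1:21D, U4:39B, U5:63BC, U6:96Ac and U1:95Ca, those of Lsp1beta, CG8679, PAN3, Esyt2 and Pli, were 2893, 3449, 8919, 8079 and 30533 bp away. At 7SKa the nearest was CG1142 at 976 bp.

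Other divisions of the genes were drawn after the values had been seen and are given as counts. Of the 18 snRNA genes whose start lies inside another gene, 1, U4:39B, had a reproducible summit and 8 had a pooled one. Of the 14 whose start lies outside other genes, 8 had a reproducible summit and 11 a pooled one. In 4 pairs, U2 and U5 genes start head to head at 287 to 609 bp from each other, and of these 8 genes 0 had a reproducible summit and 2 had a pooled one, shared by U2:34ABc and U5:34A. Of the other 5 U2 and U5 genes, 3 had a reproducible summit and 4 a pooled one. Over all genes, wherever they lie, 14.1% had a reproducible summit and 39.9% a pooled one. These divisions were not made for other genes, and no difference between them was tested.

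Many of these genes have near-identical copies, which bears on how reads could be placed. The share of 32-base words in a gene that occur once in the genome was 0% at U1:95Ca, U1:21D, U2:34ABb and the U6 genes, 48.2% at U4:39B, 40.0% at U5:35D, 35.9% at U5:63BC and 100% at 7SKa. In the 500 bp before the start it was 100% at 8 of the 9 genes and 87.8% at U6:96Ac. How the authors placed reads that fit several copies is not given in the sources used here, and the part of such reads in the summits was not tested. Of the 5 genes with the reproducible summit inside, 7SKa was the only one that is unique throughout. U11 and U12 are also unique throughout, and had a summit inside the gene in the pooled list only, at ranks 4781 and 9509. Over the 1000 bp around the start the median share was 91.2% for the 9 genes with a reproducible summit and 92.8% for the 23 without. The lowest share, 45.6%, was at U2:38ABa, which had no summit in any list. The share was 100% at U4:25F, U6atac, U7, U4atac, LU and 7SKb, which had none in the pooled list.

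**Figure D5:**
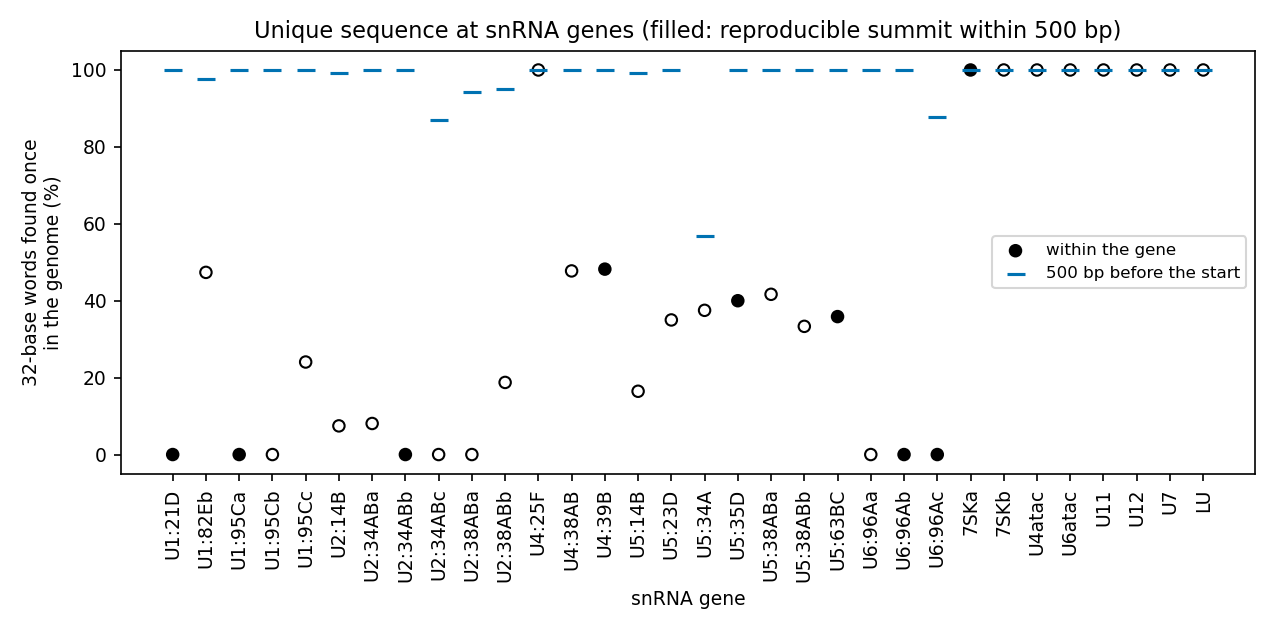
Share of 32-base words found once in the genome, in percent, within each snRNA gene (circles, filled where a reproducible summit lay within 500 bp) and in the 500 bp before its start (blue dashes). Genes with a reproducible summit span the whole range within the gene, from 0% at U1:95Ca to 100% at 7SKa.

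The protein-coding genes that make and use snRNAs were counted by lists of their complexes. Of 62 such genes found in the annotation, of 69 listed, 21 (33.9%) had a reproducible summit within 500 bp of a start, beside 17.1% of all protein-coding genes. The strongest entries reached 20 of them in each replicate. The summit was upstream in 16 and downstream in 5.

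Both listed subunits of TFIIIB, the factor that recruits RNA polymerase III, were reached with high signals. The summit of Bdp1 lay at −53 bp with a signal of 1029 and rank 49, and that of Brf at −121 bp with a signal of 666 and rank 114. Integrator, which cleaves the 3′ end of polymerase II snRNAs, was reached at 7 of 14 genes. The signal was 357 at IntS9, 291 at IntS10, 233 at omd (IntS5) and 230 at IntS11, and the others were IntS6, defl (IntS7) and IntS4. The summit lay at +491 bp at omd, near the edge of the window, and at +317 bp at IntS6. Starts of other genes near the pathway summits are not given here. Of the 7SK particle 2 of 3 genes were reached, Larp7 with a signal of 214 and bin3 with a signal of 178. Of SNAPc and TBP, which bind the snRNA promoters themselves, 1 of 4 was reached, Pbp95, at −491 bp with a signal of 130.

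The genes of the structural proteins of the particles were reached in part. In the Sm ring, which is bound by the polymerase II snRNAs of the spliceosome, it was 1 of 7 genes, SNRPG with a signal of 246. Of the U1 and U2 proteins it was 3 of 10, namely snf with 163, Sf3b1 with 145 and snRNP-U1-C with 139. Of the tri-snRNP it was 2 of 8, Prp31 with 230 and U4-U6-60K with 136. LSm7 with 114 was the 1 of 3 LSm genes, Smn with 129 the 1 of 4 SMN complex genes and Cbp20 with 174 the 1 of 5 cap and export genes. Neither U7 protein gene, Lsm10 or Lsm11, had a pooled or reproducible summit. Differences between the lists were not tested.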

How the data were processed

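Peak lists in narrowPeak format on dm6 were used. Per the deposited file listing, the authors called relaxed lists against a control alignment for each replicate and for the pooled replicates, and derived the reproducible list from them by IDR. For the aligner, the caller and the IDR threshold nothing is given in the sources used here. The deposited signal has no stated scale. The deposited −log10 q-value, tied at its maximum for 60.4% of reproducible peaks, was left aside. The summit is the authors' deposited offset. The dm3 lists were not used. All 3511 reproducible peaks stand unchanged in the pooled list, so these lists are not independent.

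Genes came from Ensembl BDGP6.54, release 115, and sequences from the RefSeq release 6 assembly. Counts, shares and distances were computed with Python 3.11.15 (numpy 2.4.6, pandas 2.3.3, scipy 1.17.1) and checked on simulated data. No p-value was computed. Where several summits lay in the window, values per gene are those of the strongest in each list, and the count of sides used the nearest. All 32 snRNA genes are named. Pathway genes are named where reproducible, with values for up to 4 a list by signal. 5 listed symbols were not found, 1 was ambiguous and 1 was a duplicate. The genes and lists were chosen with earlier results of these data known. Alternatives were windows of 200 and 1000 bp, peak overlap, the stronger part of each list, each replicate set aside and 1 gene per summit. A replicate was set aside by overlap with the strongest entries of the others, without a new reproducible list.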

Additional observations from a re-analysis of the deposited data

How the results depend on the processing

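With the stronger part of each list, by signal, 2 snRNA genes (U1:95Ca and 7SKa) kept a reproducible summit instead of 9, so that their share, 6.25%, fell below the 7.96% of all genes. Both summits were downstream and nearer to their own start than to a protein-coding one, with a median position of +175 bp. A mean of 3 genes had one of the strongest replicate entries instead of 8.67, and 11 pathway genes were reached instead of 21. The share of all genes was not computed for these replicate entries. The share of protein-coding genes was not computed under any alternative. Whether the pathway share stayed above it is therefore not known. A window of 200 bp left 6 snRNA genes, 5 of them downstream, and 13 pathway genes, and peak overlap left 6, 5 and 12 (all genes 9.97% and 9.03%), since 7SKa, U5:35D and U6:96Ab fell outside. Each replicate was set aside in turn by keeping the reproducible peaks that overlapped a strongest entry of each of the other replicates. All 9 snRNA genes remained in every case (all genes 11.2% to 11.4%), and pathway genes numbered 16 to 18. The reproducible list was not called anew, so the replicate set aside still shaped its peaks. The downstream counts under alternatives were added after seeing the data. Of 52 alternative values 42 kept within their limits, 10 moved and 0 changed sign. Only the median position could change sign, since the other values are counts or means of counts. The limits were wide, so that 6 snRNA genes instead of 9 was within them. No paired analysis was possible because there is 1 group and no comparison between conditions. Replicates 1 and 2 were listed to exactly 30000 entries, so weaker entries at snRNA genes may be cut off there.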
